A study of Mus musculus with 6 samples.

Results

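Meningeal fibroblasts build the leptomeninges, the thin membranes that cover the brain, and follow penetrating vessels into the tissue as perivascular fibroblasts. They lay down collagen-rich matrix and small leucine-rich proteoglycans, carry transporters for GABA and organic anions, and make retinoic acid. A dissected hippocampus can carry such membranes on its surface, as it can carry choroid plexus, the epithelium that secretes cerebrospinal fluid in the adjoining ventricle. The 10 genes described here are non-collagen markers of these fibroblasts, namely Dcn, Lum, Ogn, Fmod, Islr, Slc6a13, Slc22a6, Aldh1a2, Foxc1 and Foxd1, and they were found by gene symbol among the 54838 genes of the deposited table. The question was whether they differed between genotypes and whether they varied with the genes of the choroid plexus.

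The study sequenced polyA RNA from hippocampi of female mice at 7 months of age, 3 wild-type and 3 FVB/NJ-Tg(Orai1)Ibd, called transgenic below. In this FVB/NJ line a human ORAI1 coding sequence sits in a Thy1.2 expression cassette, which drives transcription in neurons, and wild-type females lack the construct. Orai1 counts lay between 302 and 376 in wild-type libraries and between 11834 and 14620 in transgenic libraries, so that every library matched its label, and Thy1 was higher in transgenic mice as well (log2 fold change 2.66). The deposited values are fragments counted per gene, with library totals from 37414241 to 52497799. CPM below are counts scaled to a common TMM-adjusted library total (the usual CPM unit), FPKM divide these by the exonic gene length in kb as well, and errors are SD over 3 mice. The neuronal markers Snap25, Rbfox3, Neurod6, Wfs1, Prox1, Fibcd1 and Neurod2 summed to between 2710 and 2850 CPM in each library, most of it Snap25, and 1 of them, Neurod2, rose in transgenic mice (log2 fold change 0.32, edgeR adjusted p = 0.0239), as did 3.10% of all genes. Neurod2 lost this call when the fit took GC content into account through offsets (0.22, edgeR adjusted p = 0.0618), when these offsets were combined with the replicate number as a block (0.22, edgeR adjusted p = 0.0619), and without wild-type mouse 1 or 2 or transgenic mouse 2 or 3, where the adjusted p ran from 0.0555 to 0.121 and the log2 fold change from 0.34 to 0.38.

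The upstream regions of the markers with the widest spread between libraries in each role are shown to give the genes their sequence context. Of the 10 genes, 8 had a promoter in the RefSeq table of GRCm38.p6, and the following are the 250 bases before the start that RefSeq gives, which can differ from the GENCODE gene start given with each gene, for a matrix gene, a transporter gene, an enzyme gene and a transcription factor gene, written 5′ to 3′ with CG pairs in capitals.
Fmod (chr1:134037004-134037253, plus strand): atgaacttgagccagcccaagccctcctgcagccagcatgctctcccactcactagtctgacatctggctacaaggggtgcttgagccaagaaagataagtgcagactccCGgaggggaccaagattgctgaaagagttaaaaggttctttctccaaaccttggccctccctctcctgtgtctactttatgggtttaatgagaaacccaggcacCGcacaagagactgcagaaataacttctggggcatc
Slc22a6 (chr19:8617746-8617995, plus strand): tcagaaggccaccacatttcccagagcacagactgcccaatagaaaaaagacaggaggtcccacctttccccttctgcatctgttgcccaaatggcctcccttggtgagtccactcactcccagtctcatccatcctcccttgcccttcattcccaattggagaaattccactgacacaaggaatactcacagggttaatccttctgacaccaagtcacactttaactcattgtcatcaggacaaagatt
Aldh1a2 (chr9:71215539-71215788, plus strand): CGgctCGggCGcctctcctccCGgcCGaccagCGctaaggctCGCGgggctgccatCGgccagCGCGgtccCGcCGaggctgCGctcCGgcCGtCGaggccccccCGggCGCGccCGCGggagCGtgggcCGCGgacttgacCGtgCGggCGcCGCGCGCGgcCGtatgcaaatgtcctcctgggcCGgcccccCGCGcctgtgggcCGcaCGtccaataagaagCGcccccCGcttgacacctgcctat
Foxd1 (chr13:98353995-98354244, plus strand): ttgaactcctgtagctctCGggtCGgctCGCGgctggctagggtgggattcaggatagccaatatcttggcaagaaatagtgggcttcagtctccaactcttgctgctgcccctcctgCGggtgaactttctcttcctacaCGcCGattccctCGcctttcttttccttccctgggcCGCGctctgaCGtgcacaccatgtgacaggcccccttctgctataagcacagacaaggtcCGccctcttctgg
These windows differed widely in base composition. CG pairs numbered 2 in Fmod, 0 in Slc22a6, 40 in Aldh1a2 and 12 in Foxd1, against a median of 6 over all 32851 promoters in the table, and GC content was 51.2%, 48.4%, 77.6% and 57.2% in the same order. The forkhead motif TGTTTAC, searched on both strands, was found in none of the windows of the 8 genes and in 3.17% of all promoters. The GC box GGGCGG was found in Foxc1, Foxd1 and Slc6a13 and in 32.7% of all promoters, and the TATA box TATAAA in Ogn and in 12.4% of all promoters. A match or its absence describes these letters in these windows and says nothing of binding.

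No difference between wild-type and transgenic hippocampi passed the test in any member. None of the 10 had an adjusted p under 0.05 (quasi-likelihood test of edgeR, Benjamini-Hochberg adjustment over 19087 genes), whereas 7.10% of all genes tested did. None had an unadjusted p under 0.05 either, against 27.8% of all genes, and by DESeq2's Wald test and limma-voom the adjusted count was 0 as well. In all 10 the values of the 2 genotypes overlapped, while 34.9% of all genes had groups that did not overlap, 17.9% with every transgenic value lower and 16.9% with every one higher. Fitted log2 fold changes lay between -0.33 and 0.34, and their median was 0.054, beside a median of -0.01 for all genes tested. All 10 passed the filter on low counts.

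**Figure D1:**
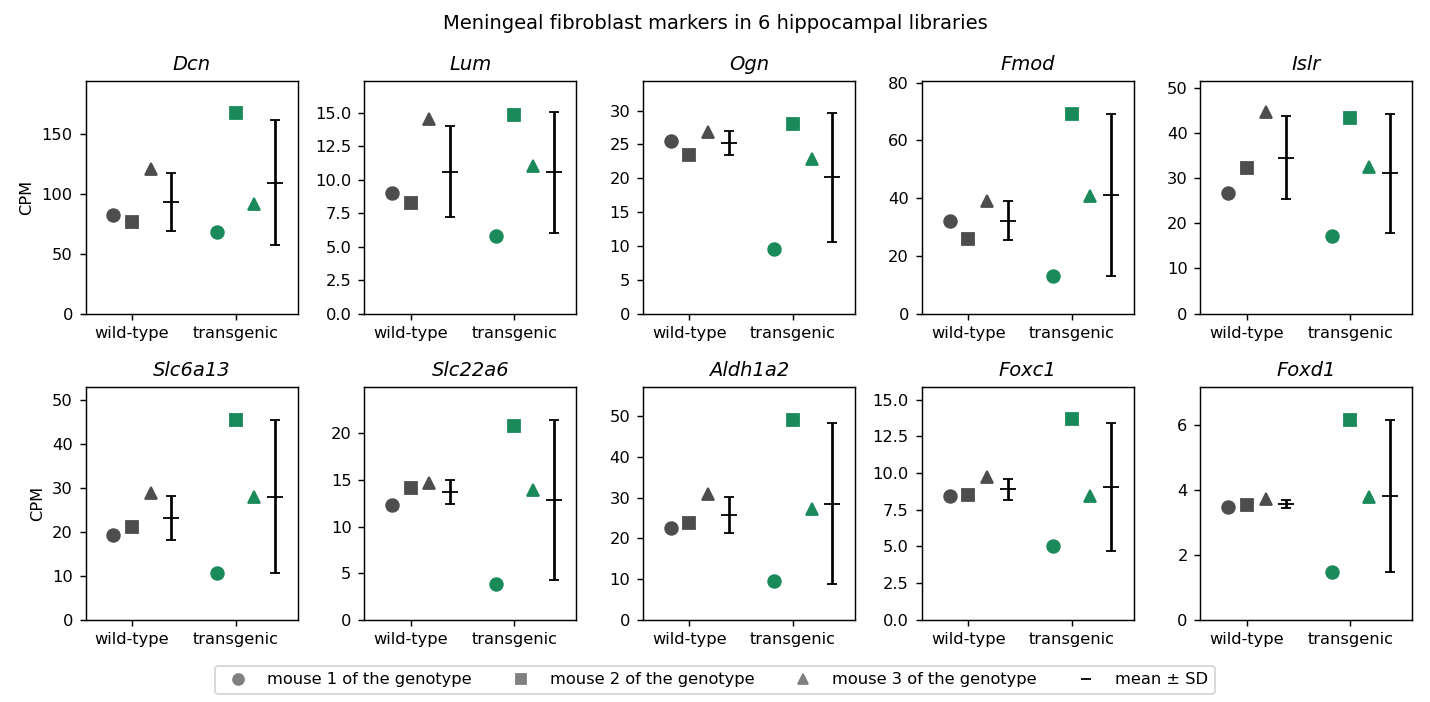
CPM of each of the 10 markers (vertical axes, linear from 0, scaled per gene) in 3 wild-type and 3 transgenic libraries, with the mean ± SD beside each group; symbols number the mice within a genotype and do not pair them. Transgenic mouse 1 is the lowest library in every panel and transgenic mouse 2 the highest in every panel but that of Islr.

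Dcn was the most abundant of the matrix genes. Decorin, encoded by Dcn (ENSMUSG00000019929, chromosome 10 of GRCm38, 97479609 to 97518143), is a proteoglycan that binds collagen fibrils. It had 82.6, 76.6 and 121 CPM in the wild-type libraries and 68.0, 168 and 91.7 CPM in the transgenic libraries. The third wild-type and the second transgenic library were high, and the groups overlapped. The means of 93.5 ± 24.3 and 109 ± 52.4 CPM gave a log2 fold change of 0.23 (standard error 0.32, edgeR adjusted p = 0.696). Lumican, encoded by Lum (ENSMUSG00000036446, chromosome 10, 97565128 to 97572703), likewise organises collagen fibrils. Its values were 8.98, 8.29 and 14.5 CPM in the wild-type and 5.83, 14.8 and 11 CPM in the transgenic mice, with the same high libraries as Dcn. The log2 fold change of Lum was -0.0061 (standard error 0.34, edgeR adjusted p = 0.995).

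Ogn (ENSMUSG00000021390, chromosome 13, 49608046 to 49624501) encodes osteoglycin, another proteoglycan of this family. Ogn had 25.5, 23.4 and 26.9 CPM in the wild-type and 9.52, 28.0 and 22.9 CPM in the transgenic mice. Wild-type libraries lay close together, and the first transgenic library alone stood far below them. Its log2 fold change was -0.33 (standard error 0.33, edgeR adjusted p = 0.557). Fibromodulin, encoded by Fmod (ENSMUSG00000041559, chromosome 1, 134037254 to 134048277), regulates collagen fibril assembly. It had 32.1, 25.7 and 38.9 CPM in the wild-type and 13.1, 69.1 and 40.9 CPM in the transgenic mice. The transgenic libraries alone spanned both the lowest and the highest value, and the log2 fold change was 0.34 (standard error 0.50, edgeR adjusted p = 0.696). Islr (ENSMUSG00000037206, chromosome 9, 58156268 to 58204306), also called meflin, encodes a leucine-rich repeat protein of mesenchymal stromal cells. Its 26.6, 32.3 and 44.6 CPM in the wild-type and 17.2, 43.4 and 32.5 CPM in the transgenic mice gave a log2 fold change of -0.15 (standard error 0.32, edgeR adjusted p = 0.798). Islr was the only member whose highest library was wild-type, that of mouse 3. Its annotated span overlaps Islr2 on the same strand, so the share of fragments that belongs to each is uncertain.

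Both transporter genes were lowest in the first and highest in the second transgenic library. Slc6a13 (ENSMUSG00000030108, chromosome 6, 121300227 to 121337733) encodes the GABA transporter GAT2. It had 19.4, 21.2 and 29 CPM in the wild-type and 10.6, 45.6 and 28.1 CPM in the transgenic mice. Its log2 fold change was 0.27 (standard error 0.44, edgeR adjusted p = 0.730). Slc22a6 (ENSMUSG00000024650, chromosome 19, 8618039 to 8628299) encodes the organic anion transporter OAT1. Its values were 12.3, 14.1 and 14.7 CPM in the wild-type and 3.79, 20.8 and 13.9 CPM in the transgenic mice. In Slc22a6 the second transgenic library was 5.48 times the first, the widest such ratio among the 10 genes, and the log2 fold change between genotypes was -0.10 (standard error 0.49, edgeR adjusted p = 0.917).

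Aldh1a2 (ENSMUSG00000013584, chromosome 9, 71215789 to 71296243) encodes the enzyme RALDH2, which makes retinoic acid. It had 22.6, 23.8 and 30.8 CPM in the wild-type and 9.56, 49.0 and 27.1 CPM in the transgenic mice. As in Fmod, the transgenic libraries held both extremes, and the log2 fold change was 0.15 (standard error 0.48, edgeR adjusted p = 0.877). The forkhead transcription factor gene Foxc1 (ENSMUSG00000050295, chromosome 13, 31806633 to 31812476), which is needed for normal meninges, had 8.41, 8.53 and 9.70 CPM in the wild-type and 5.04, 13.7 and 8.41 CPM in the transgenic mice. Its log2 fold change was 0.025 (standard error 0.31, edgeR adjusted p = 0.969). Foxd1 (ENSMUSG00000078302, chromosome 13, 98354242 to 98359305), a forkhead factor gene of stromal lineages, had 3.48, 3.53 and 3.72 CPM in the wild-type and 1.48, 6.16 and 3.79 CPM in the transgenic mice. It had the fewest fragments, between 69 and 235 per library. The wild-type mice of Foxd1 differed by a factor of 1.07 and the transgenic mice by a factor of 4.16, and the log2 fold change was 0.082 (standard error 0.42, edgeR adjusted p = 0.924).

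Per length, the wild-type levels ran from 16.0 ± 4.17 FPKM for Dcn to 0.706 ± 0.0257 FPKM for Foxd1. Between them came Islr at 12.8 ± 3.42, Aldh1a2 at 11.4 ± 1.96, Ogn at 9.85 ± 0.678, Fmod at 9.75 ± 2.01, Slc6a13 at 7.99 ± 1.76, Lum at 4.32 ± 1.38, Slc22a6 at 3.41 ± 0.312 and Foxc1 at 1.52 ± 0.122 FPKM. Dcn exceeded Islr, Aldh1a2 exceeded Ogn and Foxc1 exceeded Foxd1 in all 6 libraries. Islr and Aldh1a2 changed places between libraries, with Islr above in 4 of 6, and Ogn was above Fmod in 2 of 6, both of them wild-type. Lum was above Slc22a6 in 5 of 6.

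The intervals show which differences these libraries could have missed. The lowest bound of the 95% intervals was a log2 fold change of -1.24, in Slc22a6, and the highest was 1.5, in Fmod. For Dcn the interval ran from -0.53 to 0.98, for Ogn from -1.10 to 0.44 and for Foxc1 from -0.70 to 0.75. A fall as deep as the median of the choroid plexus genes, -2.38, lay outside all 10 intervals, but changes of up to about the size of these bounds remained within them. With 3 mice per genotype the smallest p that exact permutation of the labels allows for any 1 value is 0.1, two-sided.

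The direction of the small differences was set by single libraries. Without transgenic mouse 1 all 10 log2 fold changes were above 0 with a median of 0.41, and without transgenic mouse 2 all 10 were below 0 with a median of -0.41. In neither case did a member reach an adjusted p under 0.05. Without transgenic mouse 1, Fmod, Slc6a13 and Aldh1a2 had an unadjusted p under 0.05, with log2 fold changes of 0.77, 0.67 and 0.57 and edgeR adjusted p of 0.0910, 0.117 and 0.178. In that fit 13.3% of all genes were higher with an unadjusted p under 0.05.

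**Figure D2:**
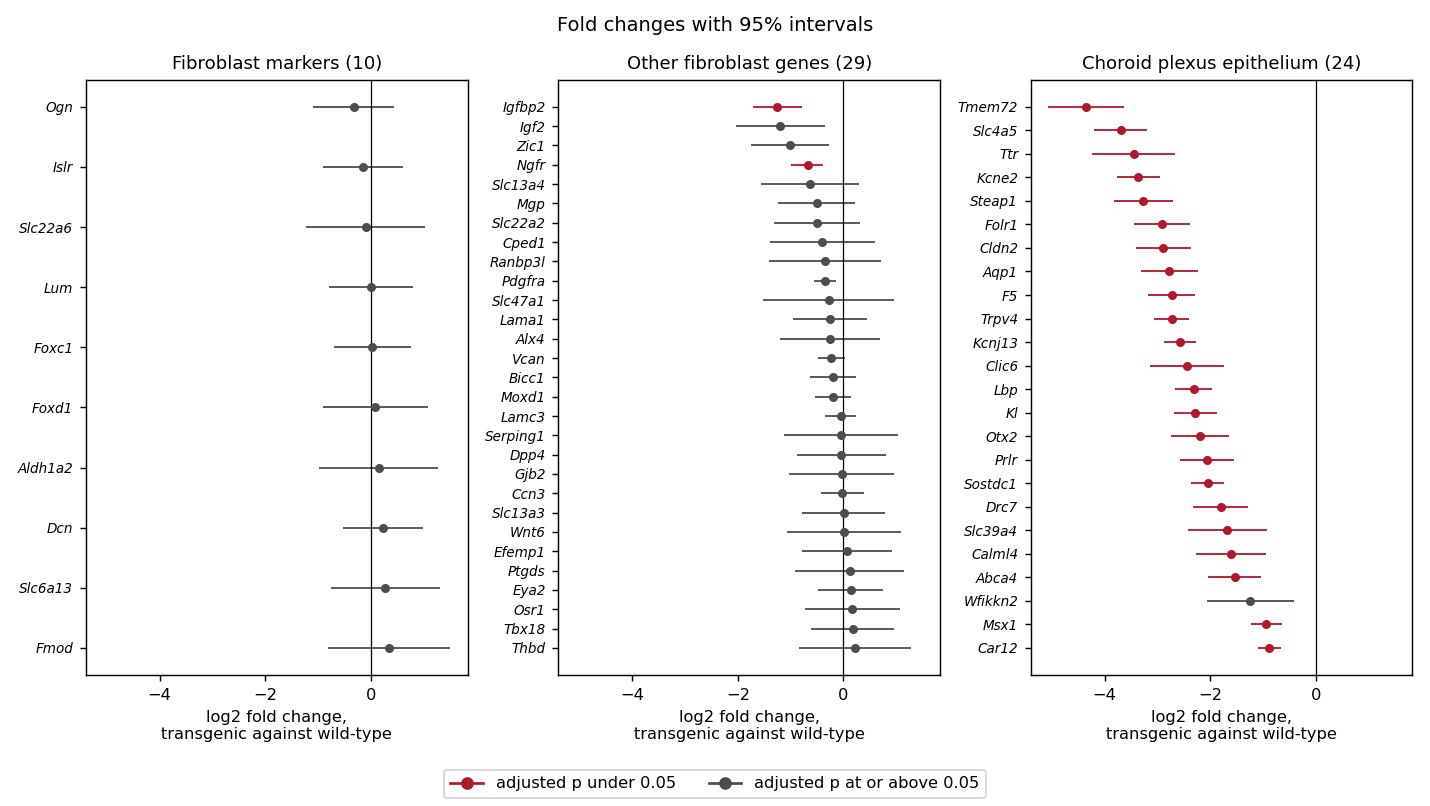
Fitted log2 fold changes (horizontal axes, transgenic against wild-type) with 95% intervals for the 10 markers, 29 other fibroblast genes and 24 genes of the choroid plexus epithelium, with genes of an adjusted p under 0.05 in red. All 10 marker intervals cross 0, while 23 of the 24 choroid plexus genes are red and lower in transgenic mice.

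What the members shared was their order across mice. In all 10 the first transgenic library was the lowest of the 6, and in 9 the second transgenic library was the highest. This pair of extremes was found in 4.83% of all genes tested and in 4.66% of the 10656 genes within the members' range of mean log2 CPM. The third wild-type library was the highest of its genotype in all 10, and the transgenic libraries rose in the order of mice 1, 3 and 2 in all 10. Of the 19087 genes tested, 6956 were highest of the wild-type libraries in the third, and 4151 had that transgenic order. The second transgenic library exceeded the first by a factor between 2.47, in Dcn, and 5.48, in Slc22a6, with a median of 3.55, where the median over all genes tested was 1.00. Among genes of like abundance, the SD of log2 CPM between transgenic mice was above that of 98.6% to 99.8% of genes in every member. Between wild-type mice the position of that SD varied from 30% for Foxd1 to 98.3% for Lum. The first transgenic library held 47027279 fragments and the second 38094114, and the part of depth in the spread was not tested. In bulk RNA, fewer cells of a type and less RNA per cell cannot be told apart.

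Taken against the mean log2 CPM of the other 9 markers in the same library, Dcn was the highest and Foxd1 the lowest in every library, and the ranks of the other 8 changed between libraries. Dcn stood 2.36 to 3.29 above the other markers over the 6 libraries, and Aldh1a2 stood 0.15 to 0.73 above them. Slc22a6 ran from -1.32 in the first transgenic library to -0.34 in the second wild-type library. Ogn was the only member whose relative values did not overlap between genotypes. It lay 0.61, 0.47 and 0.26 above the other markers in wild-type and 0.14, -0.16 and 0.21 in transgenic mice, a difference of -0.38 on the log2 scale. In plain CPM 34.9% of all genes tested had groups that did not overlap, and no such share was computed for relative values. With GC offsets the fitted log2 fold change of Ogn was -0.12 in place of -0.33. The comparison of relative values was chosen after the values were seen and has no test.

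The choroid plexus genes were lower in transgenic mice, and their summed level did not follow that of the markers. The list of the choroid plexus epithelium held 24 genes, among them Tmem72, Slc4a5, Ttr, which encodes the thyroxine carrier transthyretin, and the potassium channel subunit gene Kcne2. All 24 were lower in every transgenic than in every wild-type library, as were 17.9% of all genes. An adjusted p under 0.05 was found in 23 of them, against 4.0% of all genes in this direction. The list was chosen with earlier results of these data known, so these counts describe the list and do not test it. The summed level of the 24 genes was 4360, 4700 and 2700 CPM in the wild-type and 578, 347 and 472 CPM in the transgenic mice, a ratio of 0.119. The summed level of the fibroblast markers was 242, 237 and 334 CPM in the wild-type and 144, 459 and 280 CPM in the transgenic mice, a ratio of 1.09. The choroid plexus sum was thus 18.0, 19.8 and 8.09 times the marker sum in the wild-type libraries and 4.01, 0.756 and 1.68 times in the transgenic libraries. Within each genotype the libraries stood in opposite order by these sums. Wild-type mouse 3 had the most fibroblast marker RNA and the least choroid plexus RNA of its group, and so had transgenic mouse 2, while transgenic mouse 1 had the least of the first and the most of the second. Because Ttr held most of the choroid plexus sum, it was left out in turn, which gave 858, 811 and 662 CPM in the wild-type and 195, 169 and 171 CPM in the transgenic mice. Without Ttr the order stayed opposite in the transgenic mice, though mice 2 and 3 were nearly level at 169 and 171 CPM. In the wild-type mice the order stayed opposite for mouse 3. Gene by gene, 6 of the 24 choroid plexus genes were lowest in transgenic mouse 1, as the members were, 4 had the members' order of transgenic mice, and none was highest of its genotype in wild-type mouse 3. Over all 19087 genes tested these counts were 5125, 4151 and 6956, so the shares of the first and second among the choroid plexus genes were near those of all genes. Since the choroid plexus levels fell into separate clusters by genotype, and 3 mice are too few within each, no correlation is given.

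**Figure D3:**
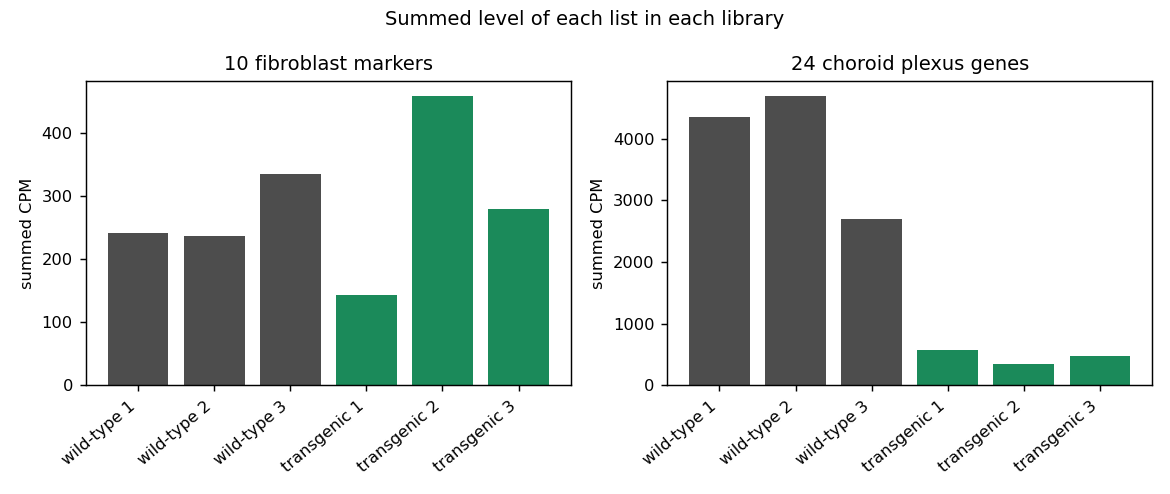
Summed CPM (vertical axes, linear from 0) of the 10 fibroblast markers and of the 24 choroid plexus genes in each of the 6 libraries, 1 bar per library. The marker bars range from 144 to 459 CPM with both extremes in transgenic mice, while the choroid plexus bars drop from at least 2700 CPM in wild-type to at most 578 CPM in transgenic mice.

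A longer list of 29 genes of leptomeningeal and perivascular fibroblasts was tested in the same fit. All passed the filter, 27 did not reach an adjusted p under 0.05, 2 were lower and none was higher, where 4.0% of all genes were lower. Of the 29, 21 had a log2 fold change below 0, as had 9871 of the 19087 genes tested, and 5 were lower at an unadjusted p under 0.05 (14.8% of all genes). The median log2 fold change of the list was -0.20, beside -0.01 for all genes tested. Its largest contributor, the prostaglandin D synthase gene Ptgds, had 930, 1230 and 1450 CPM in the wild-type and 507, 2120 and 1290 CPM in the transgenic mice. Ccn3, which encodes a secreted matrix-associated protein, was at 115 CPM in the wild-type and 113 CPM in the transgenic mice on average. In 26 of the 29 the first transgenic library was the lowest, and in 16 of these the second was also the highest.

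The exceptions were Igfbp2 and Ngfr. Igfbp2, which encodes an insulin-like growth factor binding protein that choroid plexus epithelium also makes, fell from 103, 99.0 and 65.5 CPM in wild-type to 31.2, 46.6 and 35.3 CPM in the transgenic mice. Its log2 fold change was -1.25 (standard error 0.20, edgeR adjusted p = 0.0219). Ngfr, which encodes the low-affinity neurotrophin receptor, fell from 3.13, 3.34 and 3.72 CPM to 2.10, 2.02 and 2.22 CPM, or by -0.68 on the log2 scale (standard error 0.13, edgeR adjusted p = 0.0312). Leaving out single mice kept the size of both changes, with log2 fold changes from -1.42 to -1.11 for Igfbp2 and from -0.73 to -0.61 for Ngfr, but not every call. Over all genes such fits called 66 to 683 genes lower in place of 764. Igfbp2 had an edgeR adjusted p of 0.103, 0.0980 and 0.0858 without wild-type mouse 1, wild-type mouse 2 and transgenic mouse 3. Ngfr lost its call with any 1 of the 6 mice left out, with an edgeR adjusted p from 0.0507 to 0.125, and also with the replicate number as a block (0.0514). Igf2, Zic1 and Pdgfra also had all transgenic values below the wild-type values, as did 17.9% of all genes, with edgeR adjusted p of 0.0848, 0.0928 and 0.0567.

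The relatives of the members in each role were read out too. Of 12 other small leucine-rich proteoglycan genes, 8 passed the filter and 1 was lower with an adjusted p under 0.05, as were 4.0% of all genes. Of the 12, Kera, Epyc, Ecm2, Aspn, Omd, Prelp and Optc lie in clusters with members. On chromosome 10 Kera and Epyc follow Dcn and Lum, and they had 2 to 5 and 1 to 20 fragments per library where Dcn had 3174 to 6422. On chromosome 13 Ecm2, Aspn and Omd precede Ogn, from 49504810 to 49592822. Omd had 1.78, 3.27 and 2.35 CPM in the wild-type and 0.450, 4.56 and 3.10 CPM in the transgenic mice, with the same extremes as Ogn. Of the 8 genes that passed the filter, 4 had these extremes, Omd included. Ecm2 was also lowest in the first transgenic library but highest in the second wild-type library, and it fell from 14.5, 16.5 and 12.7 CPM to 10.2, 11 and 10.8 CPM, a log2 fold change of -0.45 (standard error 0.10, edgeR adjusted p = 0.0462). The adjusted p of Ecm2 was between 0.0779 and 0.166 without wild-type mouse 1 or 2 or any transgenic mouse, 0.056 with the replicate number as a block, 0.0661 with gene length offsets, 0.228 with GC offsets and 0.201 with the block and GC offsets, where its log2 fold change was -0.25 and -0.24. On chromosome 1 Prelp and Optc lie next to Fmod, and Prelp had 47.6, 47.3 and 53.8 CPM in the wild-type and 38.8, 42.4 and 33.5 CPM in the transgenic mice (log2 fold change -0.37, edgeR adjusted p = 0.0558).

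None of the 14 genes of retinoic acid handling had an adjusted p under 0.05, and 2 were higher and 1 lower at an unadjusted p under 0.05, beside 13% and 14.8% of all genes. Crabp2, which encodes a carrier of retinoic acid, had 3.94, 5.38 and 6.18 CPM in the wild-type and 1.95, 7.97 and 4.70 CPM in the transgenic mice, the same extremes as Aldh1a2. These extremes were found in 3 of the 14 genes, Crabp2 included, beside 4.83% of all genes tested. Stra6, the gene of a retinol transporter, varied less, from 23.0 to 31.9 CPM over the 6 libraries. Among 6 GABA and organic anion transporter genes none was called. Slc6a12, the gene of the betaine and GABA transporter, had 4.01, 4.34 and 8.03 CPM in the wild-type and 1.84, 12.2 and 5.88 CPM in the transgenic mice. The members' extremes were found in 3 of these 6 genes, Slc6a12 included. Of 9 further forkhead factor genes 7 passed the filter and none had an adjusted p under 0.05. Foxc2, the closest relative of Foxc1, had 2.25, 2.42 and 3.12 CPM in the wild-type and 0.879, 4.09 and 2.35 CPM in the transgenic mice. Of the 7 forkhead genes that passed the filter, 3 had the members' extremes, Foxc2 included.

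Markers of other cell types at the brain surface and on vessels shared the members' extremes to varying degrees. The 3 fibrillar collagen genes of fibroblasts, Col1a1, Col1a2 and Col3a1, summed to 54.1, 44.2 and 79.6 CPM in the wild-type and 25.5, 102 and 70.6 CPM in the transgenic mice, with the members' extremes in all 3. Border macrophages, which live in the meninges and perivascular spaces, have the markers Mrc1, Lyve1, Cd163, Pf4, Cbr2 and F13a1. These 6 genes summed to 12.6, 15.9 and 19.4 CPM in the wild-type and 6.30, 24.2 and 19.5 CPM in the transgenic mice. The first transgenic library was the lowest in all 6, as in 5125 of the 19087 genes tested. Both of the members' extremes were found in 3 of the 6, beside 4.83% of all genes tested. The 8 mural cell genes summed to between 213 and 387 CPM and the 8 endothelial genes to between 197 and 273 CPM, each sum lowest in the first and highest in the second transgenic library. Gene by gene, these extremes were found in 2 of the 8 mural and 4 of the 8 endothelial genes. Of the 8 endothelial genes 1 was higher with an adjusted p under 0.05, as were 3.10% of all genes, and 7 were not called. The called gene was the tight junction gene Cldn5, which rose from 21.6, 18.9 and 24.2 CPM to 27.7, 40.5 and 33.7 CPM (log2 fold change 0.66, standard error 0.15, edgeR adjusted p = 0.0430). This call was lost without wild-type mouse 1, wild-type mouse 2, transgenic mouse 2 or transgenic mouse 3, where the edgeR adjusted p ran from 0.0851 to 0.147. For Cldn5 a replicate block gave an adjusted p of 0.0559, and it was 0.0511 with gene length offsets, 0.102 with GC offsets and 0.0964 with the block and GC offsets, with log2 fold changes of 0.64, 0.60, 0.54 and 0.53 in the same order. The summed level of the 6 ependymal genes did not have these extremes, with 34.4, 49.8 and 36.8 CPM in the wild-type and 32.5, 32.3 and 24.4 CPM in the transgenic mice, though 1 of the 5 that passed the filter, Rarres2, did. The part of any of these cell types in the spread of the members was not tested.

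**Figure D4:**
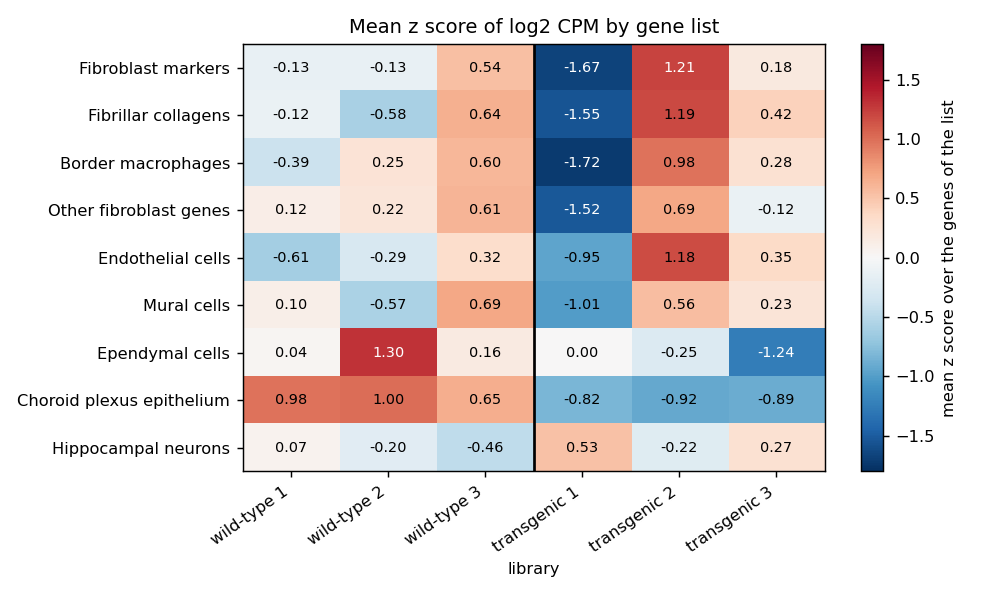
Mean z score of log2 CPM over the genes of each list (rows) in each library (columns), where the z score is taken per gene over the 6 libraries and colour gives its value. The fibroblast markers, collagens and border macrophages are lowest in transgenic mouse 1 (-1.67, -1.55 and -1.72) and highest in transgenic mouse 2 (1.21, 1.19 and 0.98), while the choroid plexus genes split by genotype. Other fibroblast genes (-1.52 and 0.69) and endothelial cells (-0.95 and 1.18) have the same extremes, and mural cells are lowest in transgenic mouse 1 (-1.01) but highest in wild-type mouse 3 (0.69).

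Genes outside these lists with the most similar pattern were ranked by Pearson's r with the members' mean z score over the 6 libraries, among 14123 genes with a mean log2 CPM above 1. The highest were Scarf2 (r = 0.997), Mrgprf (0.996), Uaca (0.996), Snx5 (0.994) and Tfpi (0.992). Mrgprf, an orphan receptor gene, had 2.25, 2.42 and 3.01 CPM in the wild-type and 1.18, 3.93 and 2.75 CPM in the transgenic mice. Tfpi, which encodes an inhibitor of the coagulation pathway, ran from 5.77 CPM in the first to 12.7 CPM in the second transgenic library. Snx5, which encodes a sorting nexin, kept the order with a far smaller spread, from 69.4 to 82.1 CPM. With the mean of each genotype taken out, Scarf2 again came first (r = 0.999), followed by Otogl, Prune2, Rps18 and Rdx with r between 0.998 and 0.999. Among them Rps18, a ribosomal protein gene, varied only from 53.0 to 59.2 CPM. These r describe 6 libraries, were picked from many genes, and have no p.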

How the data were processed

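Counts of fragments per gene were deposited by the authors for 6 hippocampal libraries, without normalization. The authors trimmed reads with Trimmomatic, aligned them to mm10 with STAR and counted them with featureCounts (1.5.0-p1 in the file header) as read pairs on the reverse strand, with primary alignments of mapping quality 3 or more, on Ensembl 95. The deposited gene length served for FPKM. Groups came from the sample titles. Symbols and positions came from GENCODE M21 (GRCm38), which matched 54809 of 54838 genes, and transcript GC content from its transcript sequences.

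Genes were filtered by edgeR's filterByExpr (minimum count 10), scaled by TMM and tested over the 6 libraries by the quasi-likelihood method of edgeR, with Benjamini-Hochberg adjustment over 19087 genes and a threshold of 0.05. Standard errors and 95% intervals were derived from the quasi-likelihood F statistic. R 4.3.3, edgeR 4.0.16, limma 3.58.1, DESeq2 1.42.0, Python 3.11.15, pandas 2.3.3 and matplotlib 3.10.9 were used, and log2 CPM had a prior count of 2. Totals ran from 37414241 to 52497799. Alternatives were other scalings, tests and filters, each mouse left out in turn, the replicate number as a block, and loess offsets (span 0.5) for gene length and GC content. The fits were tested on simulated data.

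The members and the gene lists were chosen with earlier results of these data known. Named were all members, up to 4 genes of each other list (those with an adjusted p under 0.05 first, by size of change, then by mean CPM), Orai1 and Thy1, and the 5 genes of most similar pattern by each of 2 measures; other names were chosen after their values were seen.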

Additional observations from a re-analysis of the deposited data

How the results depend on the processing

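No member reached an adjusted p under 0.05 under any of the 16 alternatives that were planned, and 23 or 24 choroid plexus genes were lower in each of them apart from the fits without a mouse, where it was 17 to 24. The median log2 fold change of the members was -0.14 with limma-voom, -0.081 with the replicate number as a block and -0.12 with the block and GC offsets together, and leaving out single mice moved it between -0.41 and 0.41. Sign changes of members, none of them of a called value, were as follows. Lum went to 0.00055 with DESeq2's Wald test, 0.0024 with no filter, 0.0029 with at least 10 counts in every library, 0.12 with GC offsets and 0.082 with the block and GC offsets. Aldh1a2, Foxc1 and Foxd1 went to -0.17, -0.12 and -0.19 with limma-voom, to -0.10, -0.074 and -0.088 with the block, and to -0.10, -0.15 and -0.14 with the block and GC offsets, and Foxc1 to -0.047 with GC offsets. With mice left out in turn, the log2 fold changes ran from -0.21 to 0.48 for Dcn, -0.31 to 0.29 for Lum, -0.63 to 0.012 for Ogn, -0.25 to 0.67 for Slc6a13, -0.63 to 0.34 for Slc22a6, -0.45 to 0.14 for Islr, -0.48 to 0.57 for Aldh1a2, -0.38 to 0.32 for Foxc1, -0.43 to 0.48 for Foxd1 and -0.24 to 0.77 for Fmod. Over all genes, 764 lower and 591 higher became 1175 and 1055 with DESeq2's Wald test, 475 and 263 with the block, 247 and 165 with GC offsets, 318 and 167 with both, 376 lower with gene length offsets, and 66 to 683 lower and 11 to 466 higher with a mouse left out. Of the 29 other fibroblast genes, 5 were lower with no filter and 0 to 2 with a mouse left out. The causes of these shifts were not tested. Same-numbered mice share only a number. Over 11191 genes their deviations correlated by 0.399, -0.357 and 0.388, and 2 of 6 libraries correlated best with their own number. The summed choroid plexus ratio was 0.229 without Ttr, an alternative chosen after the data were seen. Genes with few fragments, such as Kera and Epyc, are limited by counting error.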
